A study of Sus scrofa with 24 samples.

Results

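The 10 genes described here encode transcription factors that are known to drive or restrain adipogenesis, the conversion of fibroblast-like precursors into fat cells. They were chosen by gene symbol as PPARG, CEBPA, CEBPB, CEBPD, KLF4, KLF5, KLF15, EBF1, ZNF423 and SREBF1, and all 10 had a row among the 25462 genes measured. Transcript levels came from RNA sequencing of primary preadipocytes that were isolated from 6-day-old Yorkshire piglets. The depots were back subcutaneous fat (BF) and the fat inside a back muscle, the longissimus dorsi (IMF), and cells were sampled on days 0, 2, 4 and 8 of adipogenic culture. Each of the 8 groups held 3 libraries, 24 in all, and a group is named by its depot and day (BF-0d to IMF-8d).

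All cells were unmodified primary cultures, and the groups differed in depot and day. The muscle was digested with more collagenase and for longer than the back fat, so depot and isolation cannot be told apart. Cultures taken beyond day 0 received at near-confluence insulin, dexamethasone (a glucocorticoid) and IBMX, a phosphodiesterase inhibitor that raises cAMP. The cells then received insulin alone and later growth medium, so BF-0d and IMF-0d stand for cells before induction. The piglets behind each library are not given in the labels, so the p-values below measure the spread between libraries, which may be technical. In bulk RNA, fewer cells of a type and less RNA per cell cannot be told apart.

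In the textbook order of adipogenesis, C/EBPβ (CEBPB) and C/EBPδ (CEBPD) respond first to the hormonal cocktail, together with Krüppel-like factors such as KLF4 and KLF5. They switch on PPARγ (PPARG) and C/EBPα (CEBPA), which then maintain each other and activate the genes of lipid uptake and storage. ZNF423 and EBF1 mark committed precursors and act upstream of PPARγ, KLF15 acts with the C/EBP factors, and SREBF1 drives fatty acid synthesis.

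Levels are given as FPKM, fragments per kilobase of transcript scaled to the mapped fragments of the library, which can be compared between genes because length is divided out. Fold changes are differences of mean log2(FPKM + 1), later minus earlier day or IMF minus BF, and they understate the change of low genes. A gene was called, and is said to have risen, fallen or differed, when limma gave a Benjamini-Hochberg adjusted p under 0.01 and its log2 fold change reached 1 in either direction. The 16135 genes whose FPKM summed over all libraries exceeded 1 were tested, and all 10 factors were among them.

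The libraries summed to between 307967 and 385768 FPKM, and the read depth of each library was not used here. Before any comparison, 1 library stood apart in its likeness to day 0. BF-2d replicate 3 correlated at r = 0.978 with the mean of BF-0d over the tested genes, whereas BF-2d replicates 1 and 2 correlated at 0.94 and 0.924. Values without BF-2d replicate 3 are therefore given beside the day 2 results that it moved. Its lowest r with a library of its own group was 0.962, as for BF-2d replicate 2, and that of BF-4d replicates 1 and 3 was 0.965. Among the fixed markers of other cells, 7 of 8 myogenic markers stayed under 1 FPKM in every library, as did 3 of the 4 endothelial markers found and 3 of 6 immune markers. The summed myogenic markers, nearly all of it DES, the filament protein desmin, ranged from 29.7 to 45.4 FPKM in IMF-0d and from 4.56 to 4.91 in BF-0d. The 9 fibroblast and preadipocyte markers found summed to 8377 to 9404 FPKM on day 0 in both depots. Of 8 markers of mature adipocytes, 4 (ADIPOQ, PLIN1, LEP and PLIN4) stayed under 1 FPKM in every library. On day 8 the sum over all 8 was nearly all LPL, and it ranged from 279 to 619 FPKM in BF-8d and from 96.2 to 142 in IMF-8d. The part of these markers in the results below was not tested.

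CEBPA, KLF4, KLF15 and EBF1 were the factors whose change over time differed between the depots by the test, so the sequence next to their gene starts is shown. Each line gives the 250 bases before the RefSeq gene start of the Sscrofa11.1 assembly, read 5′ to 3′ on the gene's own strand, with any match to CACGTG, the E-box bound by helix-loop-helix factors and by SREBP-1, in capitals. The windows are chr6:43085885-43086134 (minus strand) for CEBPA, chr1:248609575-248609824 (minus) for KLF4, chr7:53890559-53890808 (minus) for KLF15 and chr16:64357749-64357998 (plus) for EBF1.
CEBPA: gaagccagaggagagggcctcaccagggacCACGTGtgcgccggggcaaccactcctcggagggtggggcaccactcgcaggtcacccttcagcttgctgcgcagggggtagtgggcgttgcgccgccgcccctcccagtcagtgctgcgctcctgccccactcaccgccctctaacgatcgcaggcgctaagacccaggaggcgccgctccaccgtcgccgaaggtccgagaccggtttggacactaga
KLF4: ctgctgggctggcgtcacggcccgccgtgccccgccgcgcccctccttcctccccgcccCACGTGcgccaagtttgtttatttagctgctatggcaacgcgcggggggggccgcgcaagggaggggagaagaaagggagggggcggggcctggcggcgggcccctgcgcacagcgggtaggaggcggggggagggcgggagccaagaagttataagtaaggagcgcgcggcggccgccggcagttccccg
KLF15: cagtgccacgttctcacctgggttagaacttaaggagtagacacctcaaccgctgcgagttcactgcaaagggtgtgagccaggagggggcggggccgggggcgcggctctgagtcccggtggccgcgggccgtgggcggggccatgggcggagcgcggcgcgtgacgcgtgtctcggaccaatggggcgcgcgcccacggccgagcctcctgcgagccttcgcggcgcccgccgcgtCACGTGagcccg
EBF1: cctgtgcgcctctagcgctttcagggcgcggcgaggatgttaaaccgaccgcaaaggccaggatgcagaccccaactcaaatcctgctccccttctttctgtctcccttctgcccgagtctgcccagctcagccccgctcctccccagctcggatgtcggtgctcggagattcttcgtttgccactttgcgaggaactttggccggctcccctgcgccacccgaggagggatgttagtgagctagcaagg
The E-box lay 220 to 215 bases before the start in CEBPA, 191 to 186 bases before it in KLF4 and 12 to 7 bases before it in KLF15, and EBF1 had no match. Of 17682 such windows in the annotation, 6.69% held a CACGTG. The gene models of CEBPB and KLF5 begin at the coding sequence, so their windows were not used and 8 of 10 factors were searched. The windows of PPARG, CEBPD, ZNF423 and SREBF1 held no CACGTG. The E-box was the only motif searched that matched in any of the 8 windows, and a link to the change over time was not tested. None of the 8 windows held TTGCGCAA (a C/EBP site, 0.175% of all windows), TGACGTCA (a cAMP response element, 1.83%), TCACNCCAC (a sterol response element, 0.826%), CCACACCC (a KLF box, 2.87%), TATAAA (9%) or the PPAR response element (0.0226%), searched on both strands. A match is only a run of letters in the window, and the absence of a match covers only these bases.

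The factors spanned more than an order of magnitude in level. KLF4 and CEBPD were the most abundant on day 0 in both depots, at 77.9 ± 2.28 and 42.9 ± 5.41 FPKM in BF-0d and at 73.9 ± 5.11 and 20.4 ± 5.47 in IMF-0d (SD, n = 3). By day 8 CEBPB had the highest mean in both depots, at 42.9 ± 2.09 FPKM in BF-8d and 36.1 ± 9.74 in IMF-8d (SD, n = 3). PPARG and KLF5 were the lowest factors in every IMF group. Averaged over the libraries, PPARG lay at percentile 34.8 of the tested genes, KLF5 at 35.2 and KLF4 at 93.6.

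**Figure D1:**
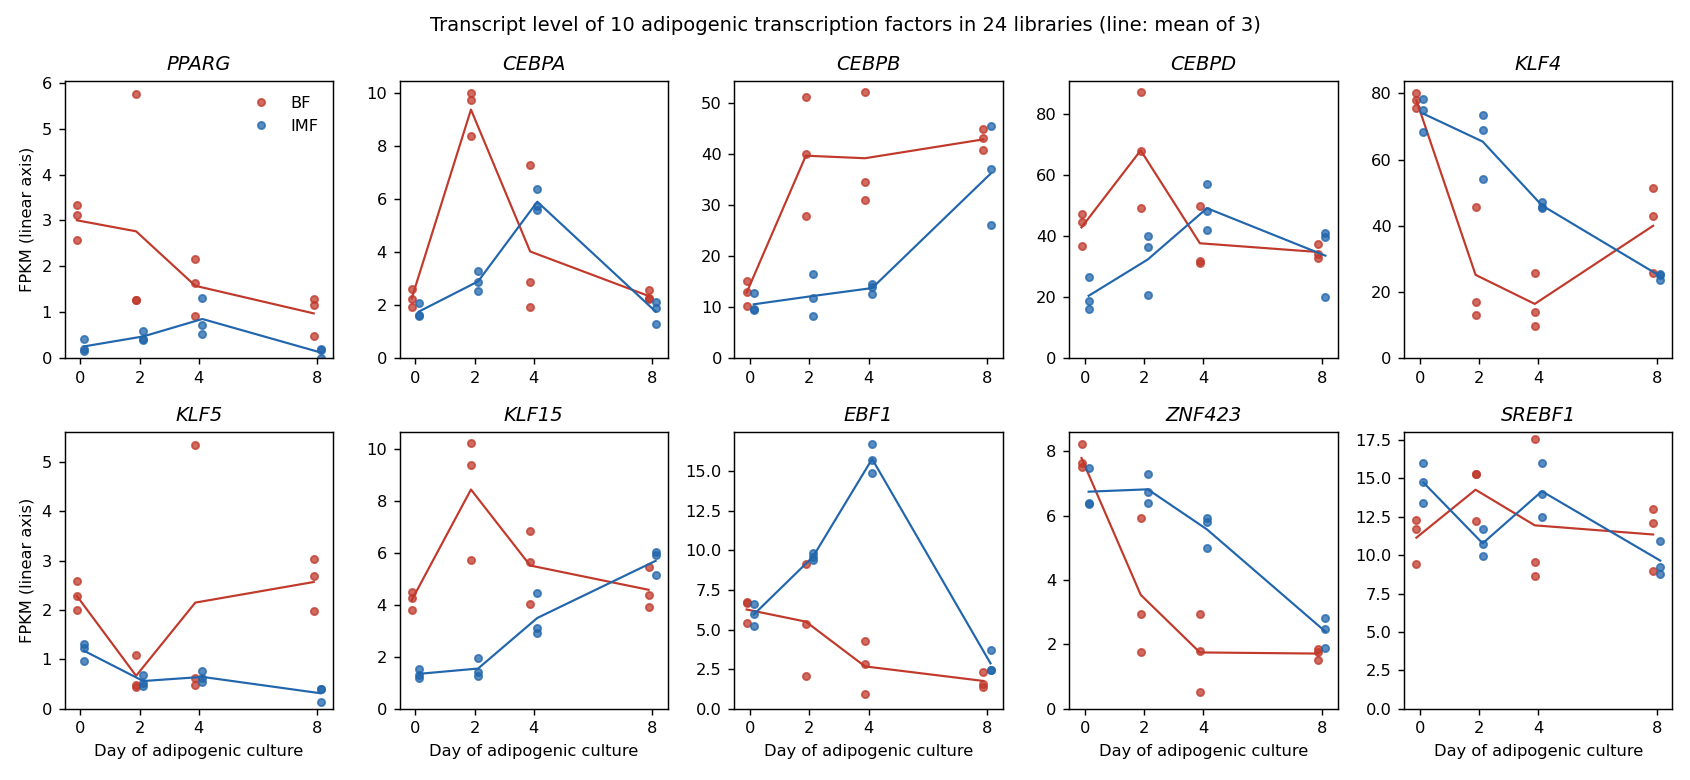
FPKM of each factor on a linear axis against day of culture, 1 point per library (BF red, IMF blue) and a line through the means of 3 libraries. CEBPA peaked at 9.37 FPKM in BF-2d and at 5.89 in IMF-4d, EBF1 reached 15.8 FPKM in IMF-4d, and PPARG did not exceed 1.31 FPKM in any IMF library.

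Within BF, 4 of 10 factors were called from day 0 to day 2 (CEBPA, CEBPB, KLF4 and ZNF423), against 6.59% of all tested genes. From day 2 to day 4 it was CEBPA alone, against 3.35% of genes. From day 4 to day 8 limma called 0 of 10, against 2.93%, and 1 factor had an unadjusted p under 0.05, as did 32.2% of genes. Without BF-4d replicate 3 it called 2 there, KLF4 at 1.65 and KLF5 at 1.19, and the number of all genes called went from 472 to 832, or 5.16%, whereas it was 295 without BF-4d replicate 1. Over the whole course, from day 0 to day 8, 4 of 10 were called in BF (PPARG, CEBPB, EBF1 and ZNF423), where the background was 13.7%. With only the libraries of BF-0d and BF-2d fitted, CEBPA alone was called over the first interval, as the adjusted p of CEBPB, KLF4 and ZNF423 was then 0.0143, 0.0349 and 0.0675. Over all genes that setting called 237 of 16135 in the first interval, 0 in the second and 4 in the last, against 1063, 541 and 472 with all libraries, so in the second no gene kept a call, CEBPA (adjusted p = 0.186) included.

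In IMF limma called 0 of 10 factors from day 0 to day 2, against 0.787% of genes, and 0 of 10 from day 2 to day 4, against 0.0372%, with 3 factors at an unadjusted p under 0.05 in each interval, as were 21.2% and 8.34% of genes. From day 4 to day 8 it called 3 (CEBPA, CEBPB and EBF1), against 7.25%, and from day 0 to day 8 it called 4 (CEBPB, KLF4, KLF15 and ZNF423), against 9.04%. The median log2 fold change of the 10 factors was 0.02 over the first BF interval and -0.65 over the last IMF interval, where all tested genes had medians of -0.04 and -0.07.

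Between depots, 2 of 10 factors differed on day 0 (PPARG and KLF15), against 2.58% of genes. On day 2 it was 6 (PPARG, CEBPA, CEBPB, CEBPD, KLF4 and KLF15), against 4.74%. On day 4 it was 4 (CEBPB, KLF4, EBF1 and ZNF423), against 11.3%, and on day 8 only KLF5, against 6.96%. Comparisons that meet in a group share its libraries, so their values stand side by side and are not independent. The day 2 count was 6 also without BF-2d replicate 3, when PPARG and CEBPD dropped out and EBF1 and ZNF423 came in, with 7.98% of genes called. It was 1 (CEBPA) when only the libraries of BF-2d and IMF-2d were fitted, with 0.663% of genes called.

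**Figure D2:**
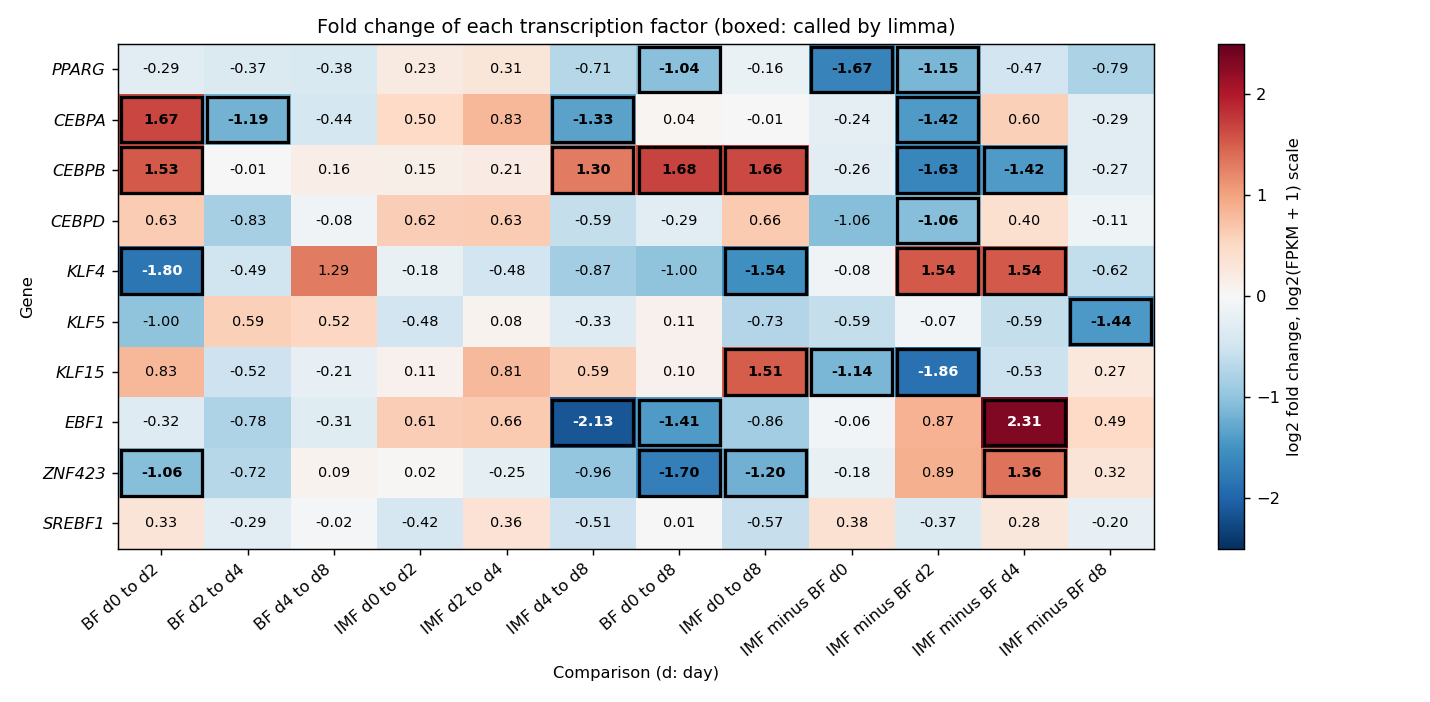
Log2 fold change of each factor (rows) in the 12 pairwise comparisons (columns), as a colour and a number, with called values boxed. SREBF1 has no boxed value and CEBPB has 6.

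CEBPB (ENSSSCG00000034207, chromosome 17, 51722633 to 51723673, positions here and below being those of the RefSeq gene on Sscrofa11.1) encodes C/EBPβ, an early responder to the induction cocktail. In BF it stood at 10.3, 13 and 15.2 FPKM in BF-0d and at 40, 51.2 and 27.8 in BF-2d. It then stayed high, at 30.9, 34.5 and 52.1 FPKM in BF-4d and at 44.8, 43.1 and 40.7 in BF-8d, so that every later BF library lay above every BF-0d library. The rise from BF-0d to BF-2d was 1.53 (SE 0.25, adjusted p = 9.82e-05), and 1.76 without BF-2d replicate 3.

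In IMF the libraries of CEBPB were at 9.38, 9.57 and 12.7 FPKM in IMF-0d, at 11.8, 16.5 and 8.24 in IMF-2d and at 14, 14.6 and 12.6 in IMF-4d. These 3 groups overlapped with each other. In IMF-8d they were at 45.4, 26 and 37 FPKM, all above every earlier IMF library, and the rise from day 4 was 1.30 (SE 0.25, adjusted p = 0.000393). The net rise from day 0 to day 8 was 1.68 in BF and 1.66 in IMF, and the difference between them was -0.02 (SE 0.35, adjusted p = 0.982). The difference of IMF from BF in CEBPB was -1.63 on day 2 and -1.42 on day 4 (adjusted p = 9.17e-05 and 0.000109), with -1.86 on day 2 without BF-2d replicate 3, and its values of -0.26 and -0.27 on days 0 and 8 were not called.

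CEBPD (ENSSSCG00000032367, chromosome 4, 79872863 to 79874481) encodes C/EBPδ, the partner of C/EBPβ in the first wave and a known glucocorticoid responder. Its BF libraries were at 36.8, 44.6 and 47.2 FPKM in BF-0d, at 49.2, 67.9 and 87.3 in BF-2d, at 32, 31.2 and 49.8 in BF-4d and at 32.7, 37.5 and 34.2 in BF-8d. In IMF it was at 18.7, 16 and 26.6 FPKM on day 0, at 40, 36.4 and 20.7 on day 2, at 48.4, 57.1 and 42 on day 4 and at 41.1, 20.1 and 39.6 on day 8. None of its changes over time was called in either depot, and the fold changes from day 0 to day 2 were 0.63 in BF (0.43 without BF-2d replicate 3) and 0.62 in IMF (adjusted p = 0.0908 and 0.196). The libraries of IMF-2d lay below those of BF-2d, with a difference of -1.06 (SE 0.28, adjusted p = 0.00805). That call was lost in 9 of 24 fits that left out a library, among them those without BF-2d replicate 2 (-1.05) or 3 (-0.87) and without IMF-2d replicate 2 (-1.17) or 3 (-0.78). On day 0 the difference was also -1.06 without overlap and was not called (adjusted p = 0.0129), but it was called without BF-2d replicate 3 (0.00939) and with only the compared libraries (0.00516).

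The share of each gene in the summed FPKM of CEBPA, CEBPB and CEBPD also moved. CEBPD made up 73 to 75.1% of the sum in BF-0d and 58 to 64.9% in IMF-0d. By day 8 CEBPB held 52 to 56% in BF-8d and 47 to 54.8% in IMF-8d, and CEBPA held 2.12 to 3.18% over the 6 libraries of that day. In IMF-4d, where CEBPB held 18.9 to 20.9%, CEBPA reached 7.41 to 9.26%. These shares are descriptions and were not tested.

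KLF4 (ENSSSCG00000005437, chromosome 1, 248604817 to 248609574) encodes a zinc finger factor that is induced within hours in culture models of adipogenesis and acts on CEBPB. On day 0 the depots overlapped, at 75.7, 77.9 and 80.2 FPKM in BF-0d and 78.2, 75.1 and 68.2 in IMF-0d. In BF-2d it was at 16.9, 13 and 45.6 FPKM and in BF-4d at 9.75, 13.8 and 25.6, where the highest value of each group was its replicate 3. The fall from BF-0d to BF-2d was called at -1.80 (SE 0.33, adjusted p = 0.00038), and it was -2.32 without BF-2d replicate 3. In BF-8d the libraries stood at 25.8, 51.4 and 42.8 FPKM, above all of BF-4d, with a fold change of 1.29 whose adjusted p of 0.0104 missed the threshold and was 0.000925 without BF-2d replicate 3.

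In IMF the KLF4 libraries were at 68.8, 54 and 73.5 FPKM on day 2, at 45.8, 47.3 and 45.4 on day 4 and at 23.7, 25.1 and 25.5 on day 8. The step from day 2 to day 4 and the step from day 4 to day 8 each left no overlap between libraries, and neither was called. Only the net fall from day 0 to day 8 was called, at -1.54 (SE 0.33, adjusted p = 0.00108). IMF lay above BF by 1.54 on both day 2 and day 4 (adjusted p = 0.00234 and 0.000877). The day 2 call was lost without BF-2d replicate 1 (1.37) or 2 (1.19) and without IMF-2d replicate 1 (1.50) or 3 (1.45), and it was 2.06 without BF-2d replicate 3. From day 4 to day 8 the change in IMF minus that in BF was -2.16 (SE 0.47, adjusted p = 0.00298), a call lost without BF-8d replicate 2 (-1.96).

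KLF5 (ENSSSCG00000035101, chromosome 11, 45370009 to 45386673) encodes a factor that acts downstream of C/EBPβ and C/EBPδ and upstream of PPARγ. It was low throughout. In BF it was at 2.28, 1.99 and 2.58 FPKM on day 0, at 0.445, 0.477 and 1.08 on day 2, at 0.623, 0.476 and 5.35 on day 4 and at 1.98, 3.04 and 2.68 on day 8. BF-4d replicate 3 held the highest value of all libraries, and the BF-4d mean of 2.15 FPKM rested on it. Without that library the change from day 4 to day 8 in IMF minus that in BF was called at -1.52 (adjusted p = 3.86e-05). In IMF it was at 1.24, 1.32 and 0.964 FPKM on day 0, at 0.689, 0.468 and 0.529 on day 2, at 0.628, 0.548 and 0.761 on day 4 and at 0.395, 0.399 and 0.147 on day 8. IMF-8d lay below BF-8d with a difference of -1.44 (SE 0.33, adjusted p = 0.00213), a call lost without BF-8d replicate 2 (-1.34) or IMF-8d replicate 3 (-1.34). The BF-2d libraries lay below all BF-0d libraries, but the adjusted p of that difference was 0.0272 (0.018 without BF-2d replicate 3) and it was not called.

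KLF15 (ENSSSCG00000036742, chromosome 7, 53877813 to 53890558) encodes a glucocorticoid-responsive factor known to promote PPARγ and glucose transporter expression in fat cells. In BF its libraries were at 3.81, 4.47 and 4.26 FPKM on day 0, at 10.2, 9.36 and 5.72 on day 2, at 5.64, 4.03 and 6.85 on day 4 and at 5.43, 3.92 and 4.37 on day 8. In IMF they were at 1.54, 1.2 and 1.29 FPKM on day 0, at 1.26, 1.97 and 1.41 on day 2, at 4.46, 3.1 and 2.91 on day 4 and at 6.01, 5.13 and 5.92 on day 8. BF thus had its highest mean on day 2 and IMF on day 8.

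The net rise of KLF15 in IMF was 1.51 (SE 0.19, adjusted p = 2.57e-06), and every IMF-8d library lay above every IMF-0d library. The net fold change in BF was 0.10 (adjusted p = 0.697), and the difference between depots in the net change was 1.41 (SE 0.26, adjusted p = 0.000868). The differences of IMF from BF in KLF15 were called as -1.14 on day 0 and -1.86 on day 2 (adjusted p = 0.000186 and 6.75e-07), the second being the largest difference between depots on day 2 among the 10 factors and -2.09 without BF-2d replicate 3. The rise from BF-0d to BF-2d was 0.83 with an adjusted p of 0.00189, short of the fold limit, and it was called at 1.06 without BF-2d replicate 3.

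PPARG (ENSSSCG00000011579, chromosome 13, 68301566 to 68433951) encodes PPARγ, the nuclear receptor needed for fat cell formation. In BF it was at 3.11, 2.57 and 3.33 FPKM on day 0, at 1.27, 1.27 and 5.75 on day 2, at 2.17, 0.919 and 1.64 on day 4 and at 1.28, 0.486 and 1.16 on day 8. The value of 5.75 belonged to BF-2d replicate 3, and the other 2 libraries of that group lay below all of BF-0d. The fold change from BF-0d to BF-2d was -0.29 (adjusted p = 0.501), and it was -0.81 (0.00357) without that library, short of the fold limit. In IMF it was at 0.425, 0.147 and 0.195 FPKM on day 0, at 0.428, 0.4 and 0.591 on day 2 and at 1.31, 0.732 and 0.517 on day 4. On day 8 IMF-8d replicates 1 and 2 were at 0.176 and 0.192 FPKM, and replicate 3 was listed at 0. That 0 can be a level too low to detect or a failed estimate, and it entered the fit as 0.

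No rise of PPARG was called in either depot. The net change in BF was called as a fall, at -1.04 (SE 0.29, adjusted p = 0.0061). That call was lost without any 1 of the BF-0d libraries and without BF-8d replicate 2 (-0.85, adjusted p = 0.0402) or 3 (-1.12), and with a pseudocount of 0.1 (adjusted p = 0.0137), no filter (0.0118), median ratio scaling (-0.94) or quantile normalization (-0.95). In IMF the net fold change was -0.16 (adjusted p = 0.719). On day 0 IMF lay below BF, at -1.67 (SE 0.29, adjusted p = 0.000466), and that call held in all 24 fits without a library. On day 2 the difference was -1.15 (adjusted p = 0.00744), and the call was lost without BF-2d replicate 3 (-0.63, adjusted p = 0.0221) or any IMF-2d library (adjusted p = 0.019 to 0.0268).

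CEBPA (ENSSSCG00000002866, chromosome 6, 43083200 to 43085884) encodes C/EBPα, the partner of PPARγ in terminal differentiation. It peaked once in each depot, on different days. In BF it went from 1.93, 2.61 and 2.24 FPKM on day 0 to 9.71, 8.37 and 10 on day 2, and it stood at 7.27, 2.86 and 1.92 on day 4 and at 2.55, 2.21 and 2.27 on day 8. In IMF it was at 1.58, 2.06 and 1.62 FPKM on day 0, at 2.85, 3.3 and 2.52 on day 2, at 6.36, 5.74 and 5.57 on day 4 and at 1.87, 1.28 and 2.11 on day 8.

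Every BF-2d library of CEBPA lay above every other library of the series. The rise from BF-0d to BF-2d was 1.67 (SE 0.23, adjusted p = 2.31e-05), BF-2d replicate 3 lay with its group here, and the call held without any single library, at 1.62 without that one. The fall from BF-2d to BF-4d (-1.19, adjusted p = 0.00129) was lost without BF-4d replicate 3 (-0.87) and was -1.14 without BF-2d replicate 3. In IMF each of the first 2 steps left no overlap between libraries, with fold changes of 0.50 and 0.83 that were not called, and the fall from day 4 to day 8 was -1.33 (SE 0.23, adjusted p = 0.000193). By day 8 the net fold change was 0.04 in BF and -0.01 in IMF.

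From day 2 to day 4 the change of CEBPA in IMF minus that in BF was 2.02 (SE 0.33, adjusted p = 0.000946), which held in all 24 fits without a library (1.97 without BF-2d replicate 3) and not with only the compared libraries (adjusted p = 0.028). KLF15 was the other factor called in that contrast, at 1.33 (SE 0.26, adjusted p = 0.00292), where 3.06% of genes were called. The KLF15 call was lost without IMF-2d replicate 1 (1.25) or IMF-4d replicate 1 (1.18), and it was 1.56 without BF-2d replicate 3. From day 4 to day 8 it was KLF4 and EBF1, with 6.39% of genes called, and from day 0 to day 8 KLF15 alone, with 4.98%. From day 0 to day 2 limma called 0 of 10 factors, against 2.45%, and 6 had an unadjusted p under 0.05, as did 30.2% of all tested genes. Without BF-2d replicate 3 it called 4 there, PPARG at 1.05, CEBPB at -1.61, KLF4 at 2.14 and ZNF423 at 1.43, and the number of all genes called went from 395 to 1182, or 7.33%.

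**Figure D3:**
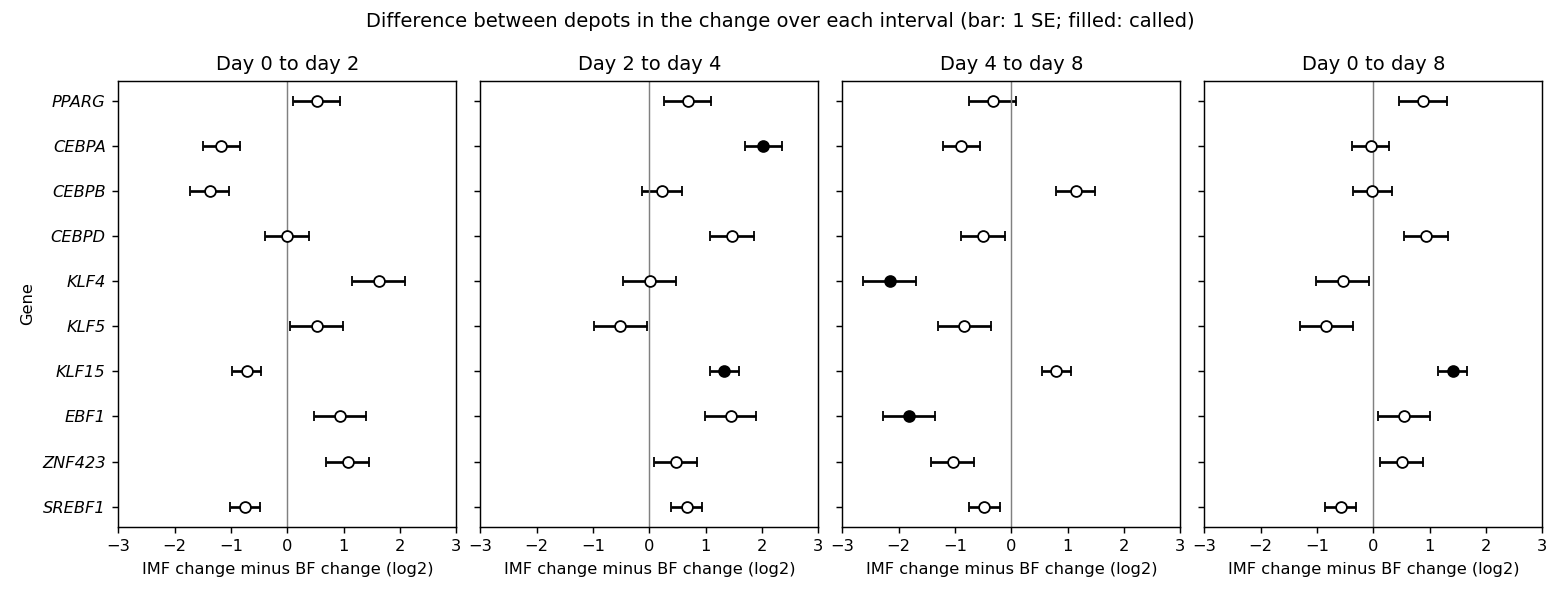
Change in IMF minus change in BF of each factor over 4 intervals, on the log2 scale, with bars of 1 SE and called values filled. CEBPA (2.02) and KLF15 (1.33) are filled from day 2 to day 4, KLF4 (-2.16) and EBF1 (-1.82) from day 4 to day 8, and KLF15 (1.41) from day 0 to day 8.

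EBF1 (ENSSSCG00000017046, chromosome 16, 64357999 to 64753188) encodes an early B-cell factor that is present in adipocyte precursors and promotes their differentiation. In BF it was at 5.4, 6.68 and 6.72 FPKM on day 0, at 5.34, 2.05 and 9.11 on day 2, at 4.29, 2.83 and 0.908 on day 4 and at 1.36, 2.33 and 1.58 on day 8. In IMF it was at 6.64, 5.96 and 5.24 FPKM on day 0, at 9.81, 9.37 and 9.6 on day 2, at 16.7, 15.7 and 14.9 on day 4 and at 2.44, 3.7 and 2.46 on day 8. All 3 IMF-4d libraries lay above every other library of the series. On day 2 the difference of IMF from BF was 0.87 and not called (adjusted p = 0.0543), but it was called at 1.27 (0.0036) without BF-2d replicate 3.

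IMF-4d was higher than BF-4d by 2.31 (SE 0.32, adjusted p = 1.09e-05), the largest difference between depots on any day among the 10 factors. Without BF-4d replicate 3 it was still called at 1.89, just below the 1.90 of KLF4 on that day. The fall in IMF from day 4 to day 8 was -2.13 (SE 0.32, adjusted p = 4.41e-05), and the net fall in BF was -1.41 (adjusted p = 0.00122). The steps up in IMF, 0.61 and 0.66, were not called (adjusted p = 0.291 and 0.625), although the libraries did not overlap. The change from day 4 to day 8 in IMF minus that in BF was -1.82 (SE 0.46, adjusted p = 0.00853), and it lost its call in 18 of 24 fits without a library, with values from -1.41 (without BF-4d replicate 3) to -1.91 and adjusted p-values of up to 0.0255.

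ZNF423 (ENSSSCG00000002838, chromosome 6, 34929286 to 35299695) encodes a zinc finger protein that marks committed preadipocytes. Its libraries were at 7.51, 7.65 and 8.23 FPKM in BF-0d and at 2.94, 1.76 and 5.93 in BF-2d, the last being replicate 3. They were at 2.95, 1.79 and 0.516 FPKM in BF-4d and at 1.86, 1.53 and 1.76 in BF-8d. In IMF they were at 7.48, 6.41 and 6.36 FPKM on day 0, at 6.75, 6.41 and 7.31 on day 2, at 5.92, 5.81 and 5 on day 4 and at 1.89, 2.49 and 2.82 on day 8. The change in IMF minus that in BF was not called in any of the 3 intervals (1.07, 0.47 and -1.04, with adjusted p = 0.0652, 0.444 and 0.0649).

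The net fall of ZNF423 was -1.70 in BF (SE 0.27, adjusted p = 3.03e-05) and -1.20 in IMF (adjusted p = 0.00157, a call lost without IMF-8d replicate 1 at -1.08), and the difference of 0.50 between these falls was not called (SE 0.38, adjusted p = 0.401). From BF-0d to BF-2d it fell by 1.06 on the log2 scale (adjusted p = 0.00523), or by 1.42 without BF-2d replicate 3, and leaving out any other library of these groups ended the call, with values from -0.75 (without BF-2d replicate 2) to -1.08. It also ended with a pseudocount of 0.1 (adjusted p = 0.0178), no filter (0.01), median ratio scaling (-0.99) and quantile normalization (-0.92). On day 2 IMF was at 0.89 above BF and not called (adjusted p = 0.0203), but this was called at 1.25 (0.000688) without BF-2d replicate 3. IMF was higher by 1.36 on day 4 (adjusted p = 0.000412), or by 0.98 without BF-4d replicate 3, which is short of the fold limit, and the call was also lost with only the compared libraries (adjusted p = 0.0191).

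SREBF1 (ENSSSCG00000033626, chromosome 12, 60733967 to 60750951) encodes SREBP-1, a membrane-bound factor released by proteolysis that activates fatty acid synthesis. It was called in no comparison. Over all libraries it ranged from 8.67 to 17.6 FPKM with a median of 12.1, and its highest group mean, 14.8 ± 1.3 FPKM in IMF-0d, was 1.53 times its lowest, 9.66 ± 1.12 in IMF-8d (SD, n = 3). No neighbouring pair in the order of its 8 group means was free of overlap. The largest of its 12 pairwise fold changes was -0.57 (SE 0.19, adjusted p = 0.0229), from IMF-0d to IMF-8d.

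Ordered by group mean, neighbouring groups mostly overlapped. EBF1 and ZNF423 each had 2 of 7 neighbouring pairs without overlap. For EBF1 these were IMF-4d above IMF-2d and IMF-2d above BF-0d, and for ZNF423 they were BF-0d above IMF-2d and IMF-0d above IMF-4d. CEBPA (BF-2d above IMF-4d), CEBPB (IMF-8d above IMF-4d), KLF4 (IMF-2d above IMF-4d), KLF5 (IMF-2d above IMF-8d) and KLF15 (IMF-4d above IMF-2d) had 1 each. PPARG, CEBPD and SREBF1 had none. Over all tested genes 43% had no such pair, 31.7% had 1 and 25.4% had 2 or more.

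Across the 8 group means, which share their libraries' normalisation and follow 2 time courses, the levels of CEBPB and ZNF423 were related at r = -0.948 and those of CEBPB and KLF4 at r = -0.867. Among 3350 eligible genes, those most like CEBPB were PNRC1 (r = 0.996), a nuclear receptor coactivator, PTGES (0.988), a prostaglandin E synthase, and PDLIM4 (0.987). KLF4 was most like COL5A2, a fibrillar collagen chain (0.991), ABCC3 (0.98) and CRYBG1 (0.974). ZNF423 was most like HERPUD2 (0.994), PSAT1, a serine synthesis enzyme (0.99), and DSTN (0.99), and EBF1 was most like TPST1 (0.99), MARCKS (0.989) and AMOT (0.975). For the remaining 6 factors the first gene was PRICKLE2 for PPARG (0.946), FOS for CEBPA (0.925), PTGFR for CEBPD (0.905), CXXC5 for KLF5 (0.942), RIPOR3 for KLF15 (0.948) and FARSA for SREBF1 (0.88). With only 8 points these values are descriptions.

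Relatives of the factors were measured beside them. Of 18 tested members of the C/EBP, KLF, EBF, ZNF423, PPAR and SREBP families outside the 10, none rose and 4 fell from BF-0d to BF-2d, KLF6 (-1.92), DDIT3 (-1.75), KLF7 (-1.51) and CEBPG (-1.22). The median of the family was -0.35, against -0.04 for all genes, of which 6.59% were called, and 5 fell without BF-2d replicate 3 and 1 with only the compared libraries. From IMF-4d to IMF-8d, 3 fell (DDIT3 by 1.84, CEBPG by 1.37 and KLF7 by 1.30) and KLF2 rose by 1.28, where 7.25% of genes were called. EBF2, the close relative of EBF1, was higher in IMF than in BF, by 1.97 on day 2, by 1.27 in the day 4 libraries and by 1.60 on day 8, with 14.3 ± 0.904 FPKM in IMF-2d and 2.99 ± 1.04 in BF-2d (SD, n = 3). KLF6 stood at 4.23 ± 2.02 FPKM in BF-2d and 24 ± 3.36 in IMF-2d (SD, n = 3), higher in IMF by 2.32. Without BF-2d replicate 3 the day 2 differences were 2.08 for EBF2 and 2.61 for KLF6, and with only the compared libraries EBF2 kept its day 2 call and KLF6 and KLF7 (1.57) lost theirs.

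Of 21 tested genes known to promote adipogenesis, none fell and 1 rose from BF-0d to BF-2d, the zinc finger protein BCL6 (1.30), where 6.59% of all tested genes were called. Over the whole course BCL6 rose by 2.53 in BF and by 1.06 in IMF, to 81.7 ± 13.6 and 36.3 ± 2.03 FPKM (SD, n = 3). ZNF467, a zinc finger factor, rose from day 4 to day 8 by 1.44 in BF and by 1.05 in IMF, and with only the compared libraries the BF call was lost and the IMF call was kept. Of 23 tested factors known to hold adipogenesis back, 5 rose and 1 fell from BF-0d to BF-2d, among them ID2 (2.54) and ID3 (2.14), inhibitors of helix-loop-helix proteins, and GATA2 (1.48), with RUNX1T1 lower (-1.07). The list median was 0.24 against -0.04 for all genes, of which 6.59% were called. Without BF-2d replicate 3 it was 5 and 2, and with only the compared libraries 1 and 0. From BF-4d to BF-8d 4 of them fell, GATA2 (-1.64), ID3 (-1.59), HES1 (-1.30) and ID2 (-1.06), where 2.93% of genes were called. All 4 calls were lost with only the compared libraries, a setting that called 4 of 16135 genes over this interval. From IMF-4d to IMF-8d GATA2 and ID2 rose by 1.65 and 1.51 and RUNX1T1 fell by 1.35, where 7.25% of genes were called. The change in IMF minus that in BF over this interval was 3.30 for GATA2 and 2.56 for ID2 (adjusted p = 0.000152 and 3.19e-05).

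Genes known to respond to the cocktail were looked at beside the factors. Of 8 tested targets of cAMP signalling, 7 rose from BF-0d to BF-2d and 2 from IMF-0d to IMF-2d, with list medians of 2.79 and 1.31 against -0.04 and -0.01 for all genes, of which 6.59% and 0.787% were called. SIK1, a cAMP-induced kinase, rose by 4.10 in BF, from 1.19 ± 0.311 to 50 ± 35.4 FPKM (SD, n = 3), or by 5.04 without BF-2d replicate 3, a call that was lost with only the compared libraries. PDE4B, the phosphodiesterase that degrades cAMP, rose by 3.49 in BF and by 2.56 in IMF. From IMF-4d to IMF-8d 5 rose and 1 (FOS, named after its value was seen) fell, with SIK1 at 4.91, NR4A2 at 4.54, NR4A3 at 3.41 and NR4A1 at 3.13, where 7.25% of genes were called, and SIK1 went from 0.766 ± 0.137 to 52.1 ± 2.94 FPKM (SD, n = 3). On day 4, 6 of 8 were lower in IMF than in BF, with SIK1 at -5.35 and 11.3% of genes called. With only the compared libraries fitted, 2 of the 7 rises over the first BF interval and 1 of the 2 in IMF were called. Of 8 tested glucocorticoid targets, 4 rose from BF-0d to BF-2d (ANGPTL4 by 3.53, DUSP1 by 2.51, SGK1 by 2.01 and ERRFI1 by 1.05) and 2 from IMF-0d to IMF-2d (SGK1 by 1.55 and PER1 by 1.10). Their medians were 1.0 and 0.23, beside the same shares of 6.59% and 0.787% over all genes. With only the compared libraries ERRFI1 and PER1 lost these calls, and without BF-2d replicate 3 the count in BF was 5.

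Genes known as PPARγ targets, ANGPTL4 again among them, were followed beside PPARG. Of 25 listed, 15 were tested, and ADIPOQ, PLIN1, PLIN4, LEP, SLC2A4, DGAT2 and RETN failed the filter on low values. From day 0 to day 8, 7 of 15 rose and none fell in BF, and 4 rose and none fell in IMF, with list medians of 0.67 and 0.32 against -0.06 and -0.05 for all genes, of which 13.7% and 9.04% were called. LPL, the lipase that releases fatty acids from lipoproteins, rose by 6.98 in BF and by 5.86 in IMF. It was at 1.58, 2.76 and 2.33 FPKM in BF-0d and at 611, 276 and 380 in BF-8d, and at 1.18, 1.18 and 0.822 in IMF-0d and 127, 141 and 93.7 in IMF-8d. CFD, the adipokine adipsin, rose by 4.56 in BF and by 3.70 in IMF.

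PCK1, an enzyme of glycerol and glucose synthesis, stood at 611, 461 and 24.5 FPKM in BF-2d and at 0.162, 0.262 and 0 in IMF-2d, a fold change of -7.41 (adjusted p = 1.90e-06). The 24.5 belonged to BF-2d replicate 3, without which the fold change was -8.87, and the call was lost with only the compared libraries. In IMF-8d PCK1 reached 64.5, 99.7 and 88 FPKM, and its rise from IMF-4d was 6.09. ADIPOQ, the adiponectin gene, did not exceed 0.23 FPKM in any library and was listed at 0 in all 12 IMF libraries, and FABP4, a fatty acid binding protein abundant in mature fat cells, did not exceed 6 FPKM. Levels in IMF were lower for 2 of 15 targets on day 0 (CFD at -2.34 and FABP4 at -1.59). The count was 5 for day 2, 6 for day 4 and 4 for day 8, and none was higher, where 2.58%, 4.74%, 11.3% and 6.96% of all tested genes were called. With only the compared libraries the day 2 count was 0.

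**Figure D4:**
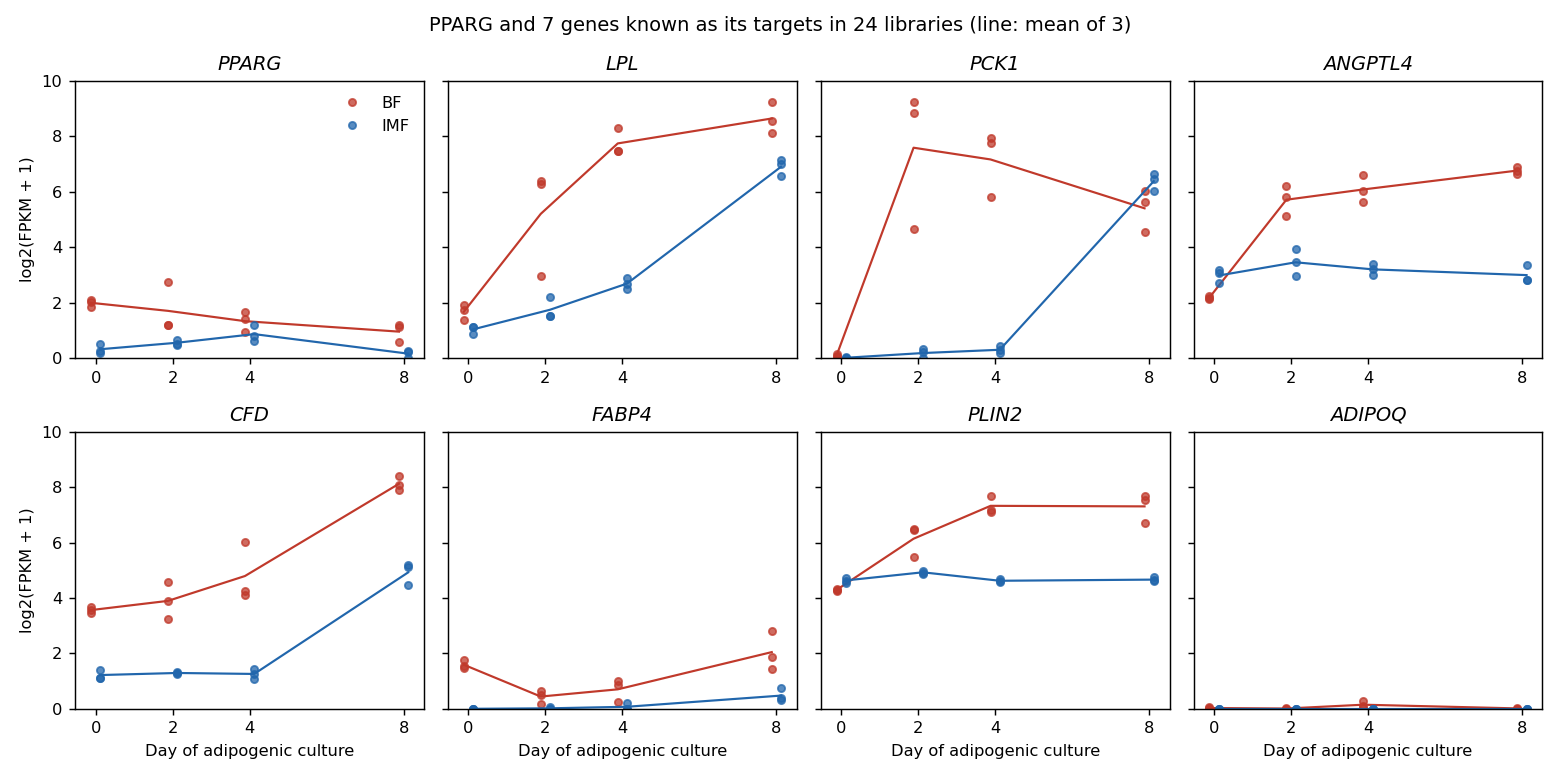
log2(FPKM + 1) of PPARG and of 7 genes known as its targets against day, 1 point per library (BF red, IMF blue) and a line through the means of 3 libraries. LPL rose by 6.98 in BF and 5.86 in IMF from day 0 to day 8, while PPARG stayed under 6 FPKM in every library and ADIPOQ near 0.

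Targets of SREBP-1 were followed beside SREBF1. Of 14 tested genes of fatty acid synthesis and desaturation, none rose and 4 fell from BF-0d to BF-8d (FADS2 by 1.37, ELOVL6 by 1.30, ACSS2 by 1.27 and FADS1 by 1.11), and none rose and 3 fell from IMF-0d to IMF-8d (SCD by 1.54, ACLY by 1.09 and MID1IP1 by 1.02). The list medians were -0.57 and -0.65, against -0.06 and -0.05 for all genes, of which 13.7% and 9.04% were called. FASN, fatty acid synthase, rose from BF-0d to BF-2d by 1.15, from 40.5, 40.7 and 40.9 to 101, 81.8 and 93 FPKM, and it fell from IMF-4d to IMF-8d by 1.03. Among 4 tested genes that control SREBP release, INSIG1, which retains the precursor in the membrane and is itself a target, fell by 1.78 in BF and by 1.63 in IMF from day 0 to day 8, and the other 3 were not called in any of the 12 pairwise comparisons. SREBF2, the related factor of sterol synthesis, fell by 1.42 in BF from day 0 to day 8, from 38.8 ± 2.02 to 13.9 ± 0.748 FPKM (SD, n = 3).

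The markers of other cells moved with some of these results. DES fell by 2.96 from IMF-0d to IMF-2d, and it was higher in IMF by 3.61 on day 4, when its libraries stood at 11.8, 10 and 13.2 FPKM in IMF-4d and at 0.0548, 0.0384 and 0 in BF-4d. In IMF-0d DES stood at 37 ± 7.91 FPKM, in IMF-2d at 3.85 ± 0.772, in IMF-4d at 11.7 ± 1.6 and in IMF-8d at 1.68 ± 0.484 (SD, n = 3). Its fall from IMF-4d to IMF-8d was called at -2.24. The change of DES in IMF minus that in BF was called at 2.36 from day 2 to day 4 and at -2.28 from day 4 to day 8. The other 7 myogenic markers, MYOD1, MYF5, MYOG and PAX7 among them, stayed under 1 FPKM in every library. Of 9 fibroblast and preadipocyte markers, 1 rose and 4 fell from BF-0d to BF-8d and 1 rose and 2 fell from IMF-0d to IMF-8d, with PI16 (-4.36 and -3.39) and COL1A1 (-2.77 and -1.58) lower and PDGFRA (1.51 and 1.89) higher in both, where 13.7% and 9.04% of all genes were called. Their sum was 2915 to 4384 FPKM in BF-4d and 8557 to 8733 in IMF-4d. The endothelial marker PECAM1 fell by 1.12 in BF over the course, the difference in net change between depots was 1.08, and on day 8 it was higher in IMF by 1.03. None of 4 tested immune markers was called in any comparison, with 0 to 2 of them at an unadjusted p under 0.05 in limma. Over all genes the comparisons called 0.0372% to 13.7%, and 8.34% to 54.4% had such a p. The part of these cells in the differences between depots was not tested.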

How the data were processed

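Polyadenylated RNA from 24 cultures (8 depot-by-day groups of 3) was sequenced as paired reads. The authors aligned the reads with HISAT2 to the Sscrofa11.1 pig genome and assembled and quantified transcripts with StringTie (1.3.4d in the submitters' processing notes, which also name DESeq2 1.6.3). They deposited 1 table of FPKM for 25462 genes, 21271 with an Ensembl ID and 4191 assembled by the authors. Symbols were found for 14815 of the Ensembl IDs. Groups follow the sample labels.

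FPKM values are not counts, and the numbers of reads behind them could not be recovered from them. Of 426 low genes, 7.04% lay within 0.02 log2 of the commonest ratio between libraries. The sequencing yield that the paper reports was not used, so values carry no counting interval. Of 4503 genes with a median over 10 FPKM, 4 were listed at 0 in some library, so a 0 can be a failed estimate. log2(FPKM + 1) was fitted with limma 3.58.1 (R 4.3.3) with 1 mean per group over 16135 genes with summed FPKM above 1, with trend and robust moderation, and p-values were adjusted over all tested genes. There were 12 pairwise comparisons and 4 contrasts of the change in IMF minus the change in BF. FPKM is relative to each library's total, so a change in other abundant genes can move it.

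The 10 factors were fixed by symbol. The lists (family members, activators, repressors, PPARγ targets, SREBP-1 targets, SREBP processing, glucocorticoid and cAMP targets, and markers of adipocytes, fibroblasts and preadipocytes, muscle, endothelium and immune cells) were written from general knowledge. The factors and lists were chosen with earlier results of these data known. From a list, a comparison names at most the 4 called genes with the largest fold change, unless stated. Genes alike in pattern are the 3 with the highest Pearson r over 8 group means, among genes reaching 5 FPKM and ranging over at least 1 log2 unit. Promoter windows come from RefSeq. Alternatives were a pseudocount of 0.1, no filter, median ratio scaling, quantile normalization, only the compared libraries, the replicate number as a block, plain eBayes, each library left out and, chosen after seeing the data, FPKM rescaled to 1 common sum.

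The labels do not say whether a replicate number marks the same piglet across groups, and the numbers were not used as pairs.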

Additional observations from a re-analysis of the deposited data

Results flagged for a closer look

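5 values stood out because the change over time differed between the depots by limma's test of that difference (change in IMF minus change in BF, 3 libraries in each of 4 groups). CEBPA had 2.02 from day 2 to day 4, where BF fell by 1.19 on the log2 scale and IMF had 0.83. KLF15 had 1.33 over the same interval and 1.41 from day 0 to day 8. KLF4 had -2.16 from day 4 to day 8, with 1.29 in BF and -0.87 in IMF. EBF1 had -1.82 from day 4 to day 8, with -0.31 in BF and -2.13 in IMF. The KLF15 value from day 0 to day 8 kept its call under every alternative. Of 24 fits without a library, the EBF1 call was lost in 18, the KLF15 call from day 2 to day 4 in 2 and the KLF4 call in 1. With only the compared libraries the calls of CEBPA, KLF15 from day 2 to day 4 and EBF1 were lost (adjusted p = 0.028, 0.0429 and 0.0117). Each library was left out in turn, but no formal test for outlying libraries was run within these groups of 3.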

How the results depend on the processing

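Of 34 called values of the factors, 17 kept their call under each alternative that was run. Of 1088 alternative values, 83 lost the call and 0 changed direction. With only the compared libraries, the number of factors called was 1 over the first BF interval and 0 over the second. It was 1 for IMF minus BF on day 2. For the change in IMF minus that in BF it was 1, 0 and 1 over the 3 intervals in order. Fewer libraries entered these fits. Over the last BF interval 1 factor (KLF4) was called, against 0, with a pseudocount of 0.1, median ratio scaling, quantile normalization, the replicate block and the common sum. On day 8, 2 factors differed between depots, against 1, with a pseudocount of 0.1 and with the common sum. The change in IMF minus that in BF over the last interval was called for 1 factor, against 2, with a pseudocount of 0.1, no filter, the replicate block, plain eBayes and the common sum, where EBF1 was lost. The cause was not tested.

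Leaving out each library gave 3 to 5 factors over the first BF interval, 0 to 2 over each of the others, 0 in the first and second IMF intervals and 3 in the last. The net change over the course gave 3 to 4 in each depot. For IMF minus BF it gave 2 to 3 on day 0, 3 to 6 on day 2, 3 to 5 on day 4 and 0 to 1 on day 8. For the difference in change it gave 0 to 4, 1 to 3 and 0 to 3 in the 3 intervals and 1 for the net change. Over all genes, a pseudocount of 0.1 moved the number called by more than 1.5 times in 11 of 16 comparisons (1063 to 2020 over the first BF interval), the common sum in 6 (to 1895 there) and only the compared libraries in 6 (to 237 there). Without BF-2d replicate 3 it was 1615 there, 1287 against 764 for IMF minus BF on day 2 and 1182 against 395 in the first difference of changes. Counts also fell. Without BF-2d replicate 2 it was 698 over the first BF interval and 445 for IMF minus BF on day 2. In the first difference of changes it was 193 without IMF-0d replicate 3, and over the first IMF interval 69 against 127 without IMF-2d replicate 2. Without BF-2d replicate 1 it was 851 against 541 over the second BF interval, and without BF-4d replicate 3 it was 832 against 472 over the last.

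The replicate block ended 2 calls, CEBPD on day 2 (adjusted p = 0.0108) and EBF1 in the difference of changes over the last interval (0.0133). Same-numbered libraries of different groups had deviations correlated at a median of 0.00136 (84 pairs, 9 over 0.1). For libraries with different numbers it was -0.00113 (168 pairs, 20 over 0.1). The numbers were not taken as pairs, but these correlations could miss a small effect shared by number. The common sum moved the median of all genes by -0.16 over the first BF interval and by 0.17 in the difference of changes there. Of 301 called values of listed genes, 271 to 284 stayed called under the 3 scalings and 0 changed direction. As read depth was not used, levels under 1 FPKM, such as PPARG in IMF-0d, IMF-2d and IMF-8d, were given no counting error.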
